A study of Homo sapiens with 12 samples.

Results

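Cadherins are cell surface proteins that bind the same protein on a neighbouring cell in the presence of calcium. The classical members carry a cytoplasmic tail that holds catenins, which link the junction to actin. Epithelia are known for E-cadherin, whereas N-cadherin is known from neurons, mesenchyme and melanoma, in which melanocytes are described to lose E-cadherin contact with keratinocytes. The genes described here were CDH1, CDH2, CDH3, CDH4, CDH6, CDH11, CDH13, CDH15 and CDH19. They were chosen by symbol from the deposited gene counts, and all 9 were found among the 75253 entries. Enough counts for a test were held by 6 of them: CDH2, CDH3, CDH4, CDH13, CDH15 and CDH19. CDH2 fell with 6-thio-dG in both lines, CDH4 fell with both compounds in A375 and rose with 6-thio-dG in LOX-IMVI BR, and CDH3 rose with BIBR1532 in A375.

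The study measured RNA by sequencing in A375 and LOX-IMVI BR, both labelled as metastatic melanoma lines of human origin. For each line there was a control group, a 6-thio-dG group (5 µM) and a group with BIBR1532 (25 µM), each of 2 biological replicates, or 12 libraries in 6 groups. The p-values measure the spread between these replicates. 6-thio-dG is a thioguanine nucleoside that telomerase can add to telomeres, and BIBR1532 is a small-molecule telomerase inhibitor. Cells were seeded at 25000 per well in plates of 6 wells. What the control cells received, how long the cells were exposed and what BR stands for are not given in the sources used here. Both compounds in a line were compared with the same control libraries. In bulk RNA, fewer cells of a type and less RNA per cell cannot be told apart.

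Libraries held 11813388 to 25822381 counts. The fit across all genes gave a biological coefficient of variation of 25.8% over both lines, against 36.1% within A375 and 4.48% within LOX-IMVI BR alone, so the shared value lies below the spread in A375 and above that in LOX-IMVI BR. Levels below are counts-per-million values (CPM) scaled by the trimmed mean of M-values (TMM), as mean ± SD of 2 libraries. A gene was called at an adjusted p under 0.05 of edgeR's quasi-likelihood test over the 29114 genes tested, and fold changes are on the log2 scale ± SE. All genes tested include 14675 NONCODE noncoding loci beside 14439 genes with symbols, and the members and lists hold the latter only. Of those with symbols, 1866 were called lower and 1127 higher with 6-thio-dG in A375, and 1554 and 897 in LOX-IMVI BR. With BIBR1532 these counts were 1481 and 1292 in A375, and 108 and 438 in LOX-IMVI BR. Between the controls, 4669 were called lower in LOX-IMVI BR and 3250 higher. Over genes with symbols the median log2 fold change was -0.25 with 6-thio-dG and -0.15 with BIBR1532 in A375. In LOX-IMVI BR it was -0.13 and 0.09, and between the controls it was -0.17. Each value was also computed under 21 alternatives, which were other scalings, filters and tests and fits without a library. There were 20 for comparisons between the lines, and 20 for CDH3, CDH15 and CDH19 in LOX-IMVI BR, which were too low to be tested in the fit of that line alone. The neural crest factor SOX10 stood at 550 ± 55.2 CPM in control A375 and at 0.592 ± 0.127 CPM in control LOX-IMVI BR, while the melanocyte antigen MLANA was at most 1.96 CPM in any library of either line. COL1A1, a collagen of fibroblasts, was at 3.16 ± 0.137 CPM in control A375 and at 1630 ± 16.1 CPM in control LOX-IMVI BR. The pigment enzyme gene TYR had no counts in the controls of either line, and DCT had none in those of LOX-IMVI BR.

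RefSeq promoter entries (GRCh38.p14) matched 3 of the 9 members. The 250 bases before a start are shown for CDH2, the cadherin with the highest level per length in every group, for CDH4, whose response to both compounds differed between the lines, and for CDH19, which held more than 2 counts in A375 libraries only. The windows are chr18:28177131-28177380 on the minus strand for CDH2, chr20:61499171-61499420 on the plus strand for CDH4 and chr18:66604091-66604340 on the minus strand for CDH19. RefSeq holds 2 such entries each for CDH2 and CDH4, and the one farther upstream is shown. The starts of all these entries, that of CDH19 included, lie inside the GENCODE 29 span of their gene. The span of CDH4 begins at 61252426, far upstream of both its windows, which thus precede internal starts. The entries not shown, chr18:28036642-28036891 and chr20:61599511-61599760, held none of the 3 motifs searched. All are written 5′ to 3′, and capitals mark the E-box CAGGTG, a sequence bound by the SNAIL and ZEB repressors.
CDH2: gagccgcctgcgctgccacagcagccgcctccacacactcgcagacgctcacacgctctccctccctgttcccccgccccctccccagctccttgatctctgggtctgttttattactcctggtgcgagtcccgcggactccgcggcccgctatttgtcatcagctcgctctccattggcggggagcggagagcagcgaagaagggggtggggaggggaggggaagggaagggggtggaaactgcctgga
CDH4: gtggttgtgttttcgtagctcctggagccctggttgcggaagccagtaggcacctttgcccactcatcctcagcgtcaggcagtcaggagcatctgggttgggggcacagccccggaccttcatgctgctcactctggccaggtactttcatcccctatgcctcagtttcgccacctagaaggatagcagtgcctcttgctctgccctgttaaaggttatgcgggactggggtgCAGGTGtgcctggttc
CDH19: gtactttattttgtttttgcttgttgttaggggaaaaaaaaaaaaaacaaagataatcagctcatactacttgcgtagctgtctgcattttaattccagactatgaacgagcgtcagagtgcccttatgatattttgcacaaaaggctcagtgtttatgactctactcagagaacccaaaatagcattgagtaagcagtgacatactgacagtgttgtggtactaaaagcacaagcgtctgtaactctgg
Both strands were searched for CAGGTG, which occurred once in the CDH4 window, its first base 16 bases before the start, and not in the CDH2 or CDH19 window. It occurred in 17.5% of all 35116 RefSeq windows of the same length. The E-box CATGTG, which 9.42% of all windows held, was in none of the 3 windows shown. Nor was CACGTG, the palindromic E-box, which 6.34% of all windows held. The match is a description of the letters only. GC content was 66.0% in the CDH2 window, 58.4% in that of CDH4 and 38.0% in that of CDH19.

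In the controls, CDH2 held a larger share of the cadherin level in LOX-IMVI BR than in A375, without overlap of libraries. Per kb of transcript, CDH2 made up 52.3 ± 0.655% of the summed level of the 9 genes in A375 and 88.4 ± 0.505% in LOX-IMVI BR. CDH13 held 35.6 ± 6.58% in A375 and 10.9 ± 0.185% in LOX-IMVI BR. The remainder in A375 was mostly CDH4, at 5.75 ± 2.38%, and CDH19, at 5.47 ± 4.57%, which in LOX-IMVI BR were at 0.394 ± 0.0941% and 0.00986 ± 0.0139%. The summed level was 58.4 ± 12.6 CPM per kb in A375 and 39.2 ± 1.25 in LOX-IMVI BR. In A375 it was 19.7 ± 3.10 with 6-thio-dG and 38.6 ± 2.58 with BIBR1532. In LOX-IMVI BR the corresponding sums were 16.8 ± 0.141 and 42.4 ± 0.796. The sum was thus lowest with 6-thio-dG in both lines, and in neither line did its libraries overlap those of the control.

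**Figure D1:**
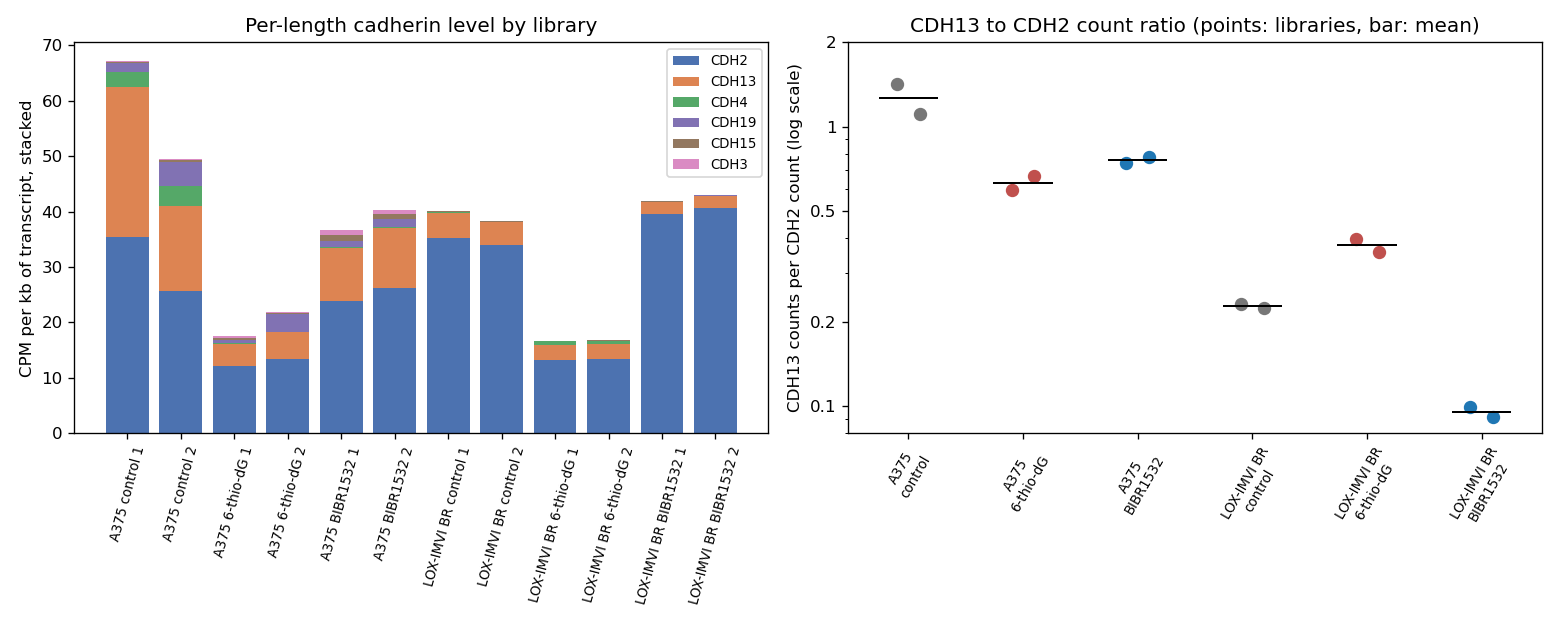
Left, summed cadherin level per library in CPM per kb of transcript, stacked by gene (CDH1, CDH6 and CDH11 are too low to draw). Right, CDH13 counts per CDH2 count on a log axis, with points for libraries and bars for means of 2. CDH2 is the largest share in each library, and the ratio runs from 1.42 in an A375 control library to 0.0916 in a LOX-IMVI BR library with BIBR1532.

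Of the 9 members, 5 of the 6 tested were lower in control LOX-IMVI BR than in control A375 and none was higher, where 28.8% of all genes tested were called lower and 21.1% higher. CDH3, CDH15 and CDH19 were too low in LOX-IMVI BR to pass the filter there and entered the test through A375. The direction of their calls was thus not free, and the count is not read as a result about the members. CDH4 had a log2 fold change of -4.36 ± 0.39 (adjusted p = 4.3e-07), and CDH13 had a log2 fold change of -2.31 ± 0.32 (adjusted p = 3.67e-05). CDH19 held 558 counts in the A375 controls and 1 in those of LOX-IMVI BR, a ratio of 618 with a 95% counting interval of 111 to 24500 (adjusted p = 2.32e-05). CDH3 held 18 counts in the A375 controls and 0 in those of LOX-IMVI BR (adjusted p = 0.00241). The 18 counts were 6.65-fold a floor of 3 counts over the group, which leaves out the counting error of the 18. CDH15 had a log2 fold change of -1.59 ± 0.56 (adjusted p = 0.0289). That call was lost with the replicate block (-1.62, adjusted p = 0.0784), the GC correction (-1.04, adjusted p = 0.0848) and voom (-1.68, adjusted p = 0.169). It was also lost without either A375 control library (adjusted p = 0.0636 and 0.0817). Without LOX-IMVI BR control replicate 1 the value was -2.45 (adjusted p = 0.0242) and without replicate 2 it was -1.02 (adjusted p = 0.253), and over all alternatives the adjusted p ran from 0.0178 to 0.253. CDH2 did not pass the test between the lines, at 0.18 ± 0.27 (adjusted p = 0.603).

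CDH2 encodes N-cadherin, which binds beta-catenin and p120-catenin and is the cadherin most tied to motile melanoma cells. It fell with 6-thio-dG in both lines and was not called with BIBR1532 in either. CDH2 lies on chromosome 18 from 27950966 to 28177446 on the minus strand (ENSG00000170558, GENCODE 29 on GRCh38), and its longest coding transcript has 16 exons and 4332 bases. Its CPM was 154 and 111 in the A375 controls, 52.8 and 58.0 under 6-thio-dG, and 103 and 113 under BIBR1532. In LOX-IMVI BR it was 153 and 147 in the controls, 56.9 and 58.2 under 6-thio-dG, and 171 and 177 under BIBR1532. The 4 libraries with 6-thio-dG were thus the lowest of all 12 and close to each other, while the A375 libraries with BIBR1532 overlapped their controls and the LOX-IMVI BR libraries with BIBR1532 stood above theirs. In order of the group means, LOX-IMVI BR with BIBR1532 was above the LOX-IMVI BR control without overlap, that control overlapped the A375 control, and the A375 control overlapped A375 with BIBR1532. The 2 groups with 6-thio-dG came last and overlapped each other.

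The log2 fold change of CDH2 with 6-thio-dG was -1.26 ± 0.28 in A375 (adjusted p = 0.00731) and -1.38 ± 0.28 in LOX-IMVI BR (adjusted p = 0.00358). The difference between the lines in this response was -0.12 ± 0.38 (adjusted p = 0.917). With BIBR1532 the log2 fold change was -0.29 ± 0.27 in A375 (adjusted p = 0.492) and 0.21 ± 0.27 in LOX-IMVI BR (adjusted p = 0.795). The fit of LOX-IMVI BR alone, with its smaller spread, called CDH2 higher with BIBR1532 (0.15, adjusted p = 0.0159). The A375 call was lost with upper-quartile scaling (-0.86, adjusted p = 0.0645), voom (-1.26, adjusted p = 0.0996) and a fit of A375 alone (-1.24, adjusted p = 0.0933), and over all alternatives its adjusted p ran from 2.04e-06 to 0.0996. The LOX-IMVI BR call was lost without 6-thio-dG replicate 1 (adjusted p = 0.065) or replicate 2 (adjusted p = 0.0552), within a range of 5.73e-19 to 0.065. In LOX-IMVI BR the summed level of the 7 fibroblast markers also moved, from 1710 to 1740 CPM in the controls to 34.3 to 35.4 CPM with 6-thio-dG. Of the 7, 4 were called lower, against 7.16% of all genes. Most of that sum was COL1A1, at 1630 ± 16.1 CPM in the controls and 15.4 ± 0.608 CPM with 6-thio-dG, and the median log2 fold change of the 7 was -1.39. Its part in the fall of CDH2 was not tested. In A375 the same sum was 13 to 15.3 CPM in the controls and 15.6 to 15.9 CPM with 6-thio-dG.

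**Figure D2:**
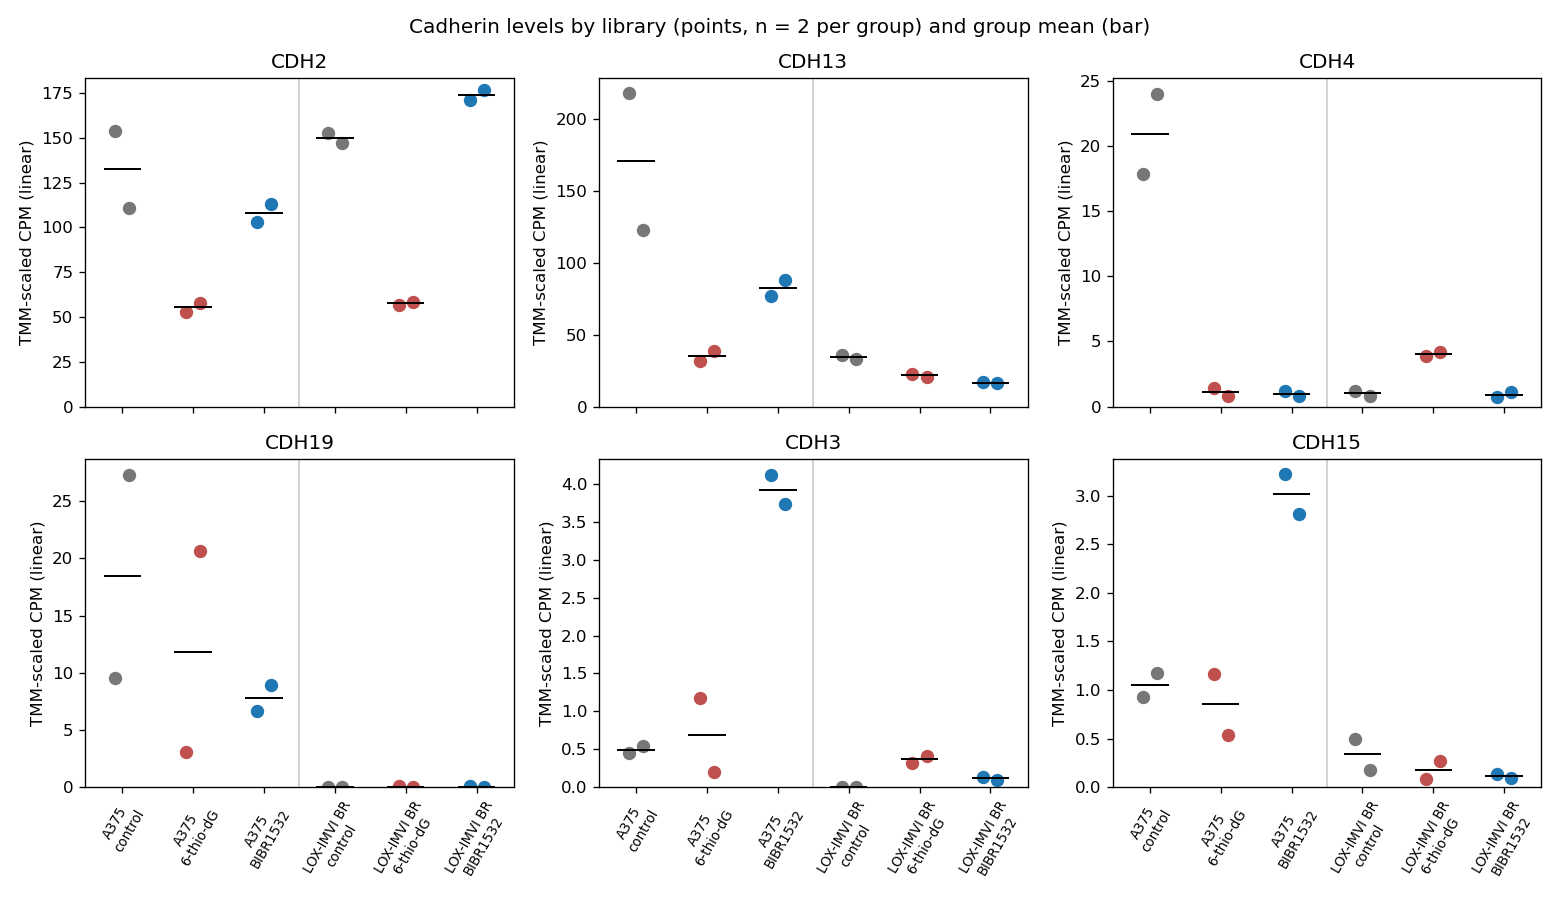
TMM-scaled CPM of the 6 tested cadherin genes on linear axes that start at 0. Points are libraries, bars are means of 2 libraries, and grey, red and blue stand for control, 6-thio-dG and BIBR1532. CDH2 is lowest in the 4 libraries with 6-thio-dG, at 52.8 to 58.2 CPM, and CDH4 is highest in the A375 controls, at 17.8 and 24 CPM.

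CDH13 encodes T-cadherin, which is held in the membrane by a lipid anchor, lacks the catenin-binding tail and is a receptor for adiponectin. It had the next highest level per length after CDH2 in every group and fell with both compounds in A375. The gene lies on chromosome 16 from 82626803 to 83800640 on the plus strand (ENSG00000140945). Its CPM was 218 and 123 in the A375 controls, 31.4 and 38.7 under 6-thio-dG, and 76.8 and 88.2 under BIBR1532. In LOX-IMVI BR it was 35.5 and 33.1 in the controls, 22.6 and 20.7 under 6-thio-dG, and 17.0 and 16.2 under BIBR1532. Within each line no library with a compound overlapped the controls, though the A375 controls were themselves far apart.

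With 6-thio-dG the log2 fold change of CDH13 in A375 was -2.28 ± 0.32 (adjusted p = 0.000536), which stayed called under every alternative run, at adjusted p of 8.15e-12 to 0.0194. With BIBR1532 in A375 it was -1.05 ± 0.31 (adjusted p = 0.0355). That call did not last under 13 of 21 alternatives, with adjusted p from 0.00526 to 0.282. Among them were 9 of the 12 fits with a library left out, all except those without A375 control replicate 2 or either A375 library with 6-thio-dG, and the value was -0.57 (adjusted p = 0.127) without A375 control replicate 1. In LOX-IMVI BR the values were -0.66 ± 0.31 with 6-thio-dG (adjusted p = 0.169) and -1.05 ± 0.32 with BIBR1532 (adjusted p = 0.0865), and neither was called. The fit of LOX-IMVI BR alone called both, at adjusted p of 3.24e-08 and 1.58e-11, and so did voom and the fits without either A375 control library (0.0368 and 0.0343 for 6-thio-dG, 0.0137 and 0.0124 for BIBR1532). For BIBR1532 the DESeq2 test (0.023), no filter (0.0479), the GC correction (0.00985) and the fits without either A375 library with 6-thio-dG (0.0209 and 0.0207) called it too. Over all alternatives the adjusted p ran from 3.24e-08 to 0.486 for 6-thio-dG and from 1.58e-11 to 0.46 for BIBR1532. The difference between the lines was 1.62 ± 0.44 for 6-thio-dG (adjusted p = 0.0447), with the smaller fall in LOX-IMVI BR, and 0.00 ± 0.40 for BIBR1532. The 6 endothelial markers, of a cell type that carries T-cadherin, summed to 2.80 to 2.91 CPM in the A375 controls, 5.75 to 7.78 CPM with 6-thio-dG and 8.52 to 8.78 CPM with BIBR1532. Of 4 tested, edgeR called 3 higher with 6-thio-dG and 2 with BIBR1532, against 9.86% and 8.49% of all genes. DESeq2 called 1 higher with each compound and voom called 0. The part of these markers in the CDH13 values was not tested. CDH5, which defines endothelium, had no counts in A375 with 6-thio-dG.

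The ratio of CDH13 to CDH2 counts within a library does not depend on how libraries are scaled. It was 1.42 and 1.11 in the A375 controls, 0.594 and 0.667 under 6-thio-dG, and 0.743 and 0.779 under BIBR1532. In LOX-IMVI BR it was 0.232 and 0.225 in the controls, 0.397 and 0.356 under 6-thio-dG, and 0.0991 and 0.0916 under BIBR1532. The ratio was lower with either compound than in the control in A375. In LOX-IMVI BR it was higher with 6-thio-dG and lower with BIBR1532, without overlap of libraries. An exact permutation test of 2 libraries against 2 cannot go below p = 0.333, so no test of the ratio is given.

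CDH4 encodes R-cadherin, a classical cadherin known from the retina that can pair with N-cadherin. It showed the largest falls of the tested members, in A375 with both compounds, and it rose in LOX-IMVI BR with 6-thio-dG. The gene lies on chromosome 20 from 61252426 to 61940617 on the plus strand (ENSG00000179242). Counts were 477 and 265 in the A375 controls, 17 and 12 under 6-thio-dG, and 26 and 16 under BIBR1532, or 17.8 and 24, 1.42 and 0.805, and 1.16 and 0.774 CPM. In LOX-IMVI BR they were 24 and 18 in the controls, 96 and 122 under 6-thio-dG, and 11 and 23 under BIBR1532, or 1.2 and 0.818, 3.84 and 4.20, and 0.753 and 1.08 CPM. The A375 controls were highest, LOX-IMVI BR with 6-thio-dG came next without overlap, and the other 4 groups overlapped each other near 1 CPM.

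The log2 fold change of CDH4 in A375 was -4.24 ± 0.40 with 6-thio-dG (adjusted p = 3.12e-05) and -4.41 ± 0.39 with BIBR1532 (adjusted p = 1.23e-05). Both stayed called under every alternative run, with values of -4.69 to -3.83 and of -4.73 to -4.14. In LOX-IMVI BR it was 1.99 ± 0.38 with 6-thio-dG (adjusted p = 0.00265) and -0.11 ± 0.43 with BIBR1532 (adjusted p = 0.971). The rise was lost without LOX-IMVI BR control replicate 2 (1.72, adjusted p = 0.07), within a range of 1.92e-08 to 0.07. The difference between the lines was 6.24 ± 0.55 for 6-thio-dG (adjusted p = 4.89e-05) and 4.30 ± 0.58 for BIBR1532 (adjusted p = 0.00129), both called under every alternative run. Of all genes tested, 2.48% were called higher and 3.06% lower for the first difference, and 2.09% and 1.54% for the second. CDH4 and CDH13 were the members called for the first difference and CDH4 for the second.

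**Figure D3:**
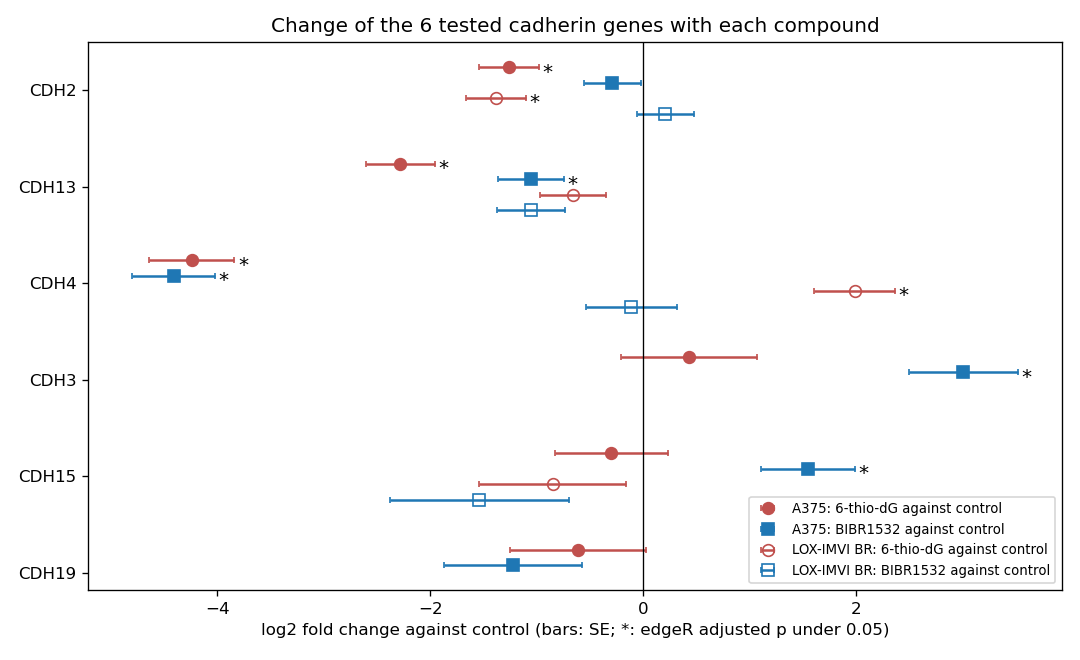
Log2 fold change of each tested cadherin gene against the control of its line; points are fitted values, bars are ± SE and asterisks mark an adjusted p under 0.05 by edgeR. CDH3 and CDH19 in LOX-IMVI BR are not drawn because a group held 0 to 2 counts. CDH4 lies at -4.24 and -4.41 in A375 and at 1.99 and -0.11 in LOX-IMVI BR.

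CDH3 encodes P-cadherin, a junction protein of basal epithelium and hair follicles that melanocytes also carry. It rose in A375 with BIBR1532 and was low elsewhere. Counts were 12 and 6 in the A375 controls, 14 and 3 under 6-thio-dG, and 92 and 77 under BIBR1532. In LOX-IMVI BR they were 0 and 0 in the controls, 8 and 12 under 6-thio-dG, and 2 and 2 under BIBR1532. The A375 libraries with BIBR1532 stood apart from all others at 4.12 and 3.73 CPM, while those with 6-thio-dG, at 1.17 and 0.201 CPM, lay on both sides of the controls. The log2 fold change with BIBR1532 in A375 was 3.01 ± 0.51 (adjusted p = 0.00203), and it stayed called under every alternative run, from 2.85 to 3.24. With 6-thio-dG it was 0.43 ± 0.64 (adjusted p = 0.676).

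In LOX-IMVI BR CDH3 held 20 counts with 6-thio-dG against 0 in the control. The 20 counts were 5.18-fold a floor of 3 counts over the group, which leaves out the counting error of the 20. The rise was called (adjusted p = 0.013). It was lost without either control library or without 6-thio-dG replicate 2, at adjusted p of 0.0857, 0.096 and 0.0598, within a range of 7.41e-07 to 0.096. The 4 counts with BIBR1532 were 1.55-fold the same floor, which leaves out the counting error of the 4, and the rise was not called (adjusted p = 0.298). A count of 0 in the control allows up to 0.0715 CPM over the group. The difference between the lines in the 6-thio-dG response of CDH3 was not called (adjusted p = 0.0831). It was called with the DESeq2 test (0.046), no filter (0.0122) and the GC correction (0.0239), and without A375 6-thio-dG replicate 1 (0.00813) or 2 (0.0259). The gene lies on chromosome 16 from 68636189 to 68722616, next to CDH1, and shares 694 exonic bases with an opposite-strand transcript. The library kit does not keep the strand, so reads of that transcript cannot be told apart from those of CDH3. The same limit holds for opposite-strand transcripts that share 347 exonic bases with CDH1, 141 with CDH13, 136 with CDH2 and 125 with CDH6. CDH6 also shares 1109 exonic bases with a same-strand pseudogene, and CDH11 shares 254 with a same-strand transcript.

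CDH15 encodes M-cadherin of skeletal muscle. It was higher in A375 with BIBR1532, with 72 and 58 counts against 25 and 13 in the controls and 14 and 8 with 6-thio-dG. In LOX-IMVI BR it held 10 and 4 counts in the controls, 2 and 8 under 6-thio-dG, and 2 and 2 under BIBR1532. The A375 libraries with BIBR1532, at 3.22 and 2.81 CPM, lay above all others, which were at most 1.18 CPM. The log2 fold change there was 1.55 ± 0.44 (adjusted p = 0.0301). That call was lost with the DESeq2 test (adjusted p = 0.0646), voom (adjusted p = 0.336) and A375 alone (adjusted p = 0.118). It was also lost without A375 control replicate 1 (adjusted p = 0.116) or 2 (0.0526) and without A375 BIBR1532 replicate 1 (0.191) or 2 (0.122), within a range of 0.00537 to 0.336 over all alternatives. The muscle factors MYOD1, MYOG and MYF5 had no counts in any A375 library, and the 6 muscle markers summed to 0.985 to 1.26 CPM with BIBR1532. CDH15 was not called with 6-thio-dG in A375, at -0.30 ± 0.53 (adjusted p = 0.722), or with either compound in LOX-IMVI BR. The difference between the lines in its BIBR1532 response was -3.09 and not called (adjusted p = 0.0773). It was called with upper-quartile factors (0.0485), no filter (0.0168) and the GC correction (0.0433), and without either A375 library with 6-thio-dG (both 0.0261).

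With BIBR1532 in A375, 4 of the 6 tested members were thus called, CDH3 and CDH15 higher and CDH4 and CDH13 lower. Of all genes tested, 8.49% were called higher and 7.29% lower there. The epithelial markers moved in the same comparison, with 2 of 6 tested called higher and a summed level of 506 to 551 CPM against 305 to 498 CPM in the controls. The epithelial adhesion gene EPCAM was at 0.212 ± 0.110 CPM with BIBR1532. The melanocyte markers summed to 1320 to 1480 CPM against 584 to 661 CPM, with 3 of 7 tested called higher and 1 lower. Most of that sum was SOX10, whose levels are given below with the regulators, and TYR had no counts in either group. The part of these markers in the rise of CDH3 was not tested. With 6-thio-dG in A375, 3 members were called, CDH2, CDH4 and CDH13, all lower, against 8.21% of all genes lower and 9.86% higher. With 6-thio-dG in LOX-IMVI BR, CDH3 and CDH4 were called higher and CDH2 lower, against 9.81% and 7.16% of all genes. With BIBR1532 in LOX-IMVI BR edgeR called none of the 6, where 2.90% of all genes were called higher and 0.69% lower. There 2 members, CDH3 and CDH13, had an unadjusted p under 0.05, DESeq2 called CDH13, and voom called CDH3 and CDH13.

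CDH19 encodes a cadherin of the neural crest lineage, known from Schwann cell precursors and from melanocytic cells. It was present in A375 and near 0 in LOX-IMVI BR, and its A375 libraries were far apart within groups. Counts were 256 and 302 in the A375 controls, 37 and 307 under 6-thio-dG, and 149 and 185 under BIBR1532, or 9.56 and 27.3, 3.09 and 20.6, and 6.67 and 8.95 CPM. In LOX-IMVI BR the counts were 1 and 0, 2 and 0, and 1 and 1. The A375 libraries with 6-thio-dG overlapped the controls, and those with BIBR1532 lay below both controls. The log2 fold change in A375 was -0.61 ± 0.64 with 6-thio-dG (adjusted p = 0.532) and -1.22 ± 0.65 with BIBR1532 (adjusted p = 0.211).

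The 6-thio-dG value of CDH19 turned on single libraries. Without A375 6-thio-dG replicate 2 it was -2.56 (adjusted p = 0.00617), without replicate 1 it was 0.18 and without A375 control replicate 2 it was 0.31, over an adjusted p range of 0.00617 to 0.941. With BIBR1532 it was called with no filter (-1.13, adjusted p = 0.0292) and without either A375 library with 6-thio-dG (0.0443 and 0.0440), within a range of 0.0292 to 0.854. Schwann cell markers moved with CDH19 between the controls, at 959 to 1130 CPM in A375 and 12.5 to 13.7 CPM in LOX-IMVI BR. Of these markers, 7 of 7 tested were called lower, against 28.8% of all genes. A marker that entered the test through A375 could hardly be called higher, so this count is not read as a result about the markers. With BIBR1532 in A375 they summed to 1790 to 2000 CPM, with 2 called higher and 1 lower, while CDH19 lay below both controls. With 6-thio-dG there they summed to 580 to 945 CPM, with 1 called lower. SOX10 is one of them, and their part in the CDH19 values was not tested. The transcript of CDH19 has 34.3% GC, the lowest of the members, and the libraries of A375 differed along GC content. The smooth trend of a library against the mean of all, read at that GC content, was -0.39 and -0.12 on the log2 scale in the A375 controls, -2.44 and -0.02 under 6-thio-dG, and -1.68 and -1.39 under BIBR1532. With the trend removed, the log2 fold changes of CDH19 were 0.04 with 6-thio-dG (adjusted p = 0.941) and 0.24 with BIBR1532 (adjusted p = 0.638). At the 43.2% GC of CDH13 the trend was 0.12 and -0.24 in the A375 controls, and -1.13 and -0.03 with 6-thio-dG. With BIBR1532 it was -0.49 and -0.30. With the trend removed CDH13 changed by -1.64 on the log2 scale with 6-thio-dG (adjusted p = 0.000789), while its change with BIBR1532 went from -1.05 to -0.59 and lost its call (adjusted p = 0.0725). CDH2, at 45.0% GC, changed by -0.83 with 6-thio-dG (adjusted p = 0.00378). At the 59.0% GC of CDH4 the values were 0.06 and 0.35 in the controls and 0.72 and 0.25 with 6-thio-dG, and its corrected log2 fold change was -4.44 (adjusted p = 6.13e-06).

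CDH1, CDH6 and CDH11 were too low to test. CDH1 encodes E-cadherin, CDH6 K-cadherin of kidney and CDH11 OB-cadherin of osteoblasts and mesenchyme. CDH1 held 0 to 5 counts per library and 20 in all 12, with 8 counts in A375 with BIBR1532 against 1 in the controls, a ratio of 7.04 with an interval of 0.944 to 313. Its highest group mean was 0.185 ± 0.0556 CPM. CDH6 held 29 counts in all, of which 16 and 4 came from A375 with BIBR1532, 5 and 1 from the A375 controls, and 1 from LOX-IMVI BR as a whole. Its 20 counts with BIBR1532 against 2 with 6-thio-dG gave a ratio of 6.26 with an interval of 1.52 to 55.2. That interval covers counting error only. CDH11 held 35 counts in all and at most 8 in a library, with no group mean above 0.285 ± 0.167 CPM.

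The compounds were also set against each other at their own doses, which differ. In A375, 4 members were lower with 6-thio-dG than with BIBR1532 and none higher, where 8.76% of all genes were called lower and 7.26% higher. CDH3 had a log2 fold change of -2.59 ± 0.51 (adjusted p = 0.00385), CDH15 of -1.85 ± 0.47 (adjusted p = 0.0155), CDH13 of -1.24 ± 0.31 (adjusted p = 0.0155) and CDH2 of -0.97 ± 0.27 (adjusted p = 0.0265). The CDH2 call was lost under 12 of 21 alternatives, among them each fit without an A375 BIBR1532 library (adjusted p = 0.125 and 0.0869) and each without a LOX-IMVI BR library (0.0519 to 0.0576), within a range of 0.000252 to 0.199. CDH13 lost its call without A375 BIBR1532 replicate 1 (adjusted p = 0.0681) or 2 (0.0736), within 0.000328 to 0.126. CDH15 lost it without BIBR1532 replicate 1 (0.0966) or 6-thio-dG replicate 2 (0.0696), within 0.000173 to 0.495. With voom none of the 4 was called, and in the fit of A375 alone CDH3 was the one called. CDH3 was otherwise called under every alternative run, with a value of -4.26 without A375 6-thio-dG replicate 1 and of -1.76 without replicate 2. CDH4 was not called between the compounds in A375, at 0.17 ± 0.44 (adjusted p = 0.833), nor was CDH19, at 0.61 ± 0.65 (adjusted p = 0.56), which was called without A375 6-thio-dG replicate 1 (1.38, adjusted p = 0.0488).

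In LOX-IMVI BR, CDH4 was higher with 6-thio-dG than with BIBR1532, by 2.11 ± 0.39 on the log2 scale (adjusted p = 0.00162), and CDH2 was lower, at -1.59 ± 0.28 (adjusted p = 0.00106). Of all genes, 9.89% were called higher and 10.7% lower. Both calls held under every alternative run. CDH13 was not called, at 0.39 ± 0.31 (adjusted p = 0.427), although its 4 libraries did not overlap. It was called with the GC correction (0.75, adjusted p = 0.0336), voom (0.38, adjusted p = 0.0198) and LOX-IMVI BR alone (0.46, adjusted p = 5.66e-05).

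Transcription factors that act on cadherin promoters differed between the lines in opposite ways within a family. SNAI2, the SLUG repressor of E-cadherin, was at 899 ± 32.1 CPM in control LOX-IMVI BR and 6.52 ± 1.81 CPM in control A375 (log2 fold change 7.09 ± 0.35, adjusted p = 5.28e-09), whereas SNAI1, the SNAIL repressor, was at 0.141 ± 0.0576 and 18.2 ± 0.811 CPM (-6.93 ± 0.50, adjusted p = 5.11e-08). SOX10 was lower in LOX-IMVI BR, at -9.84 ± 0.49 (adjusted p = 5.28e-09), and so was KLF4, at -5.05 ± 0.35 (adjusted p = 3.98e-08). Of 20 regulators listed, 16 were tested, and 9 were higher and 6 lower in LOX-IMVI BR, with a median log2 fold change of 1.92 against -0.12 over all genes tested. Of all genes 21.1% were called higher there and 28.8% lower. CDH1 itself held 1 count in the controls of each line.

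With 6-thio-dG, SNAI2 fell in both lines, from 6.52 ± 1.81 to 1.80 ± 0.171 CPM in A375 (adjusted p = 0.00154) and from 899 ± 32.1 to 268 ± 4.65 CPM in LOX-IMVI BR (adjusted p = 0.000759). PRRX1, a mesenchymal homeobox factor, fell from 20.5 ± 3.07 to 4.05 ± 2.90 CPM in A375 (adjusted p = 0.00206) and from 171 ± 5.30 to 43.7 ± 1.92 CPM in LOX-IMVI BR (adjusted p = 0.00326). In A375, 4 of the 16 regulators were lower and none higher. Their median was -0.86, against 0.03 over all genes and -0.25 over those with symbols. DESeq2 called 3 of the 16 lower and voom none. Of all genes 8.21% were called lower and 9.86% higher, and of the 14439 with symbols 1866 lower and 1127 higher. In LOX-IMVI BR, 5 of the regulators were lower, TWIST1 at 5.86 ± 0.257 against 18.6 ± 0.0133 CPM among them (adjusted p = 0.00559). SNAI1, named after its value was seen, was higher. The median was -0.23 against 0.05, where 7.16% of all genes were called lower and 9.81% higher. With BIBR1532 in A375, PRRX1 and ZEB2 were lower and SOX10 higher, with a median of 0.15 against -0.04. Of all genes 7.29% were called lower and 8.49% higher in that comparison. SOX10 was at 1330 ± 116 CPM there against 550 ± 55.2 CPM in the controls (adjusted p = 0.0198). With BIBR1532 in LOX-IMVI BR, KLF4 alone of the 16 was called, higher at 4.55 ± 0.149 against 1.62 ± 0.113 CPM (adjusted p = 0.019), with a median of 0.06 against 0.04. Of all genes 2.90% were called higher and 0.69% lower.

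**Figure D4:**
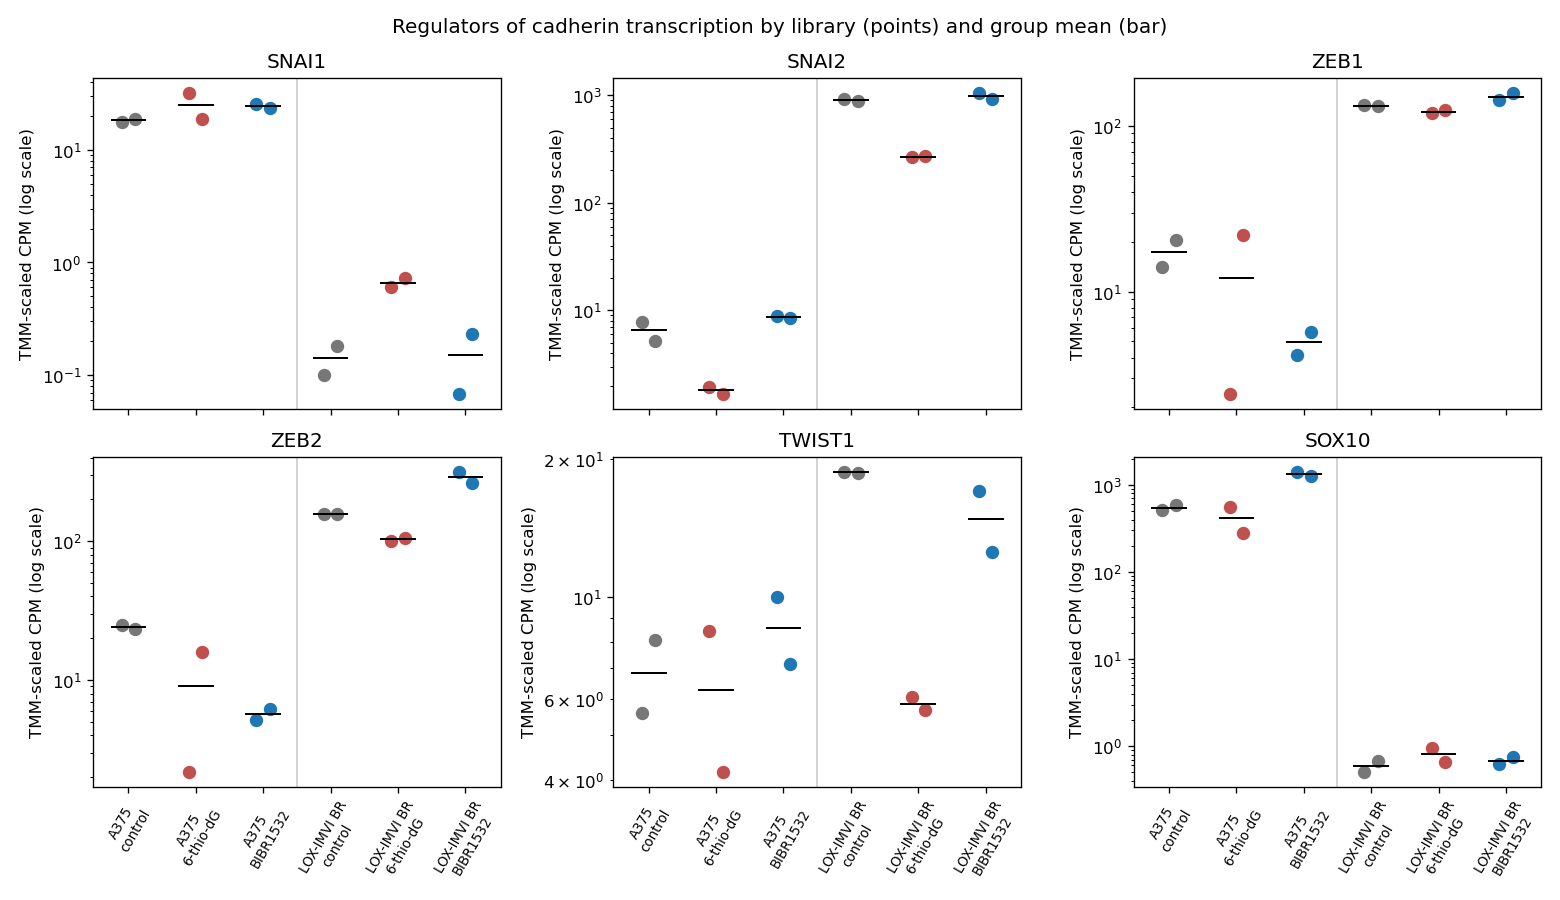
TMM-scaled CPM of 6 regulators of cadherin genes on log axes, with points for libraries, bars for means of 2, and grey, red and blue for control, 6-thio-dG and BIBR1532. SNAI2 and SNAI1 stand in opposite order in the lines, and SNAI2 is lowest with 6-thio-dG in both, at 1.80 and 268 CPM on average.

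Of 21 listed partners at the adherens junction, 16 were tested. Beta-catenin (CTNNB1), which binds the cadherin tail and was singled out with its values known, was not called with either compound in either line. With 6-thio-dG, vinculin (VCL), which ties the junction to actin, fell in both lines, from 190 ± 14.9 to 86.0 ± 2.86 CPM in A375 (adjusted p = 0.00799) and from 1010 ± 37.7 to 210 ± 5.24 CPM in LOX-IMVI BR (adjusted p = 7.75e-05). In A375, 5 partners were lower and 1 higher, against 8.21% and 9.86% of all genes. Their median log2 fold change was -0.72, against 0.03 over all genes and -0.25 over those with symbols. DESeq2 called 6 partners lower and 2 higher, and voom called 2 lower and 0 higher. In LOX-IMVI BR, 4 partners were lower and 1 higher, against 7.16% and 9.81% of all genes. Their median was -0.77, against 0.05 over all genes and -0.13 over those with symbols. DESeq2 called 5 partners lower and 1 higher, and voom called 13 lower and 1 higher. With BIBR1532 in A375, 4 partners were higher and 3 lower, against 8.49% and 7.29% of all genes. Plakoglobin (JUP) rose from 10.3 ± 0.846 to 42.5 ± 1.25 CPM (adjusted p = 0.00276) and alpha-catenin (CTNNA1) from 436 ± 90.1 to 933 ± 4.54 CPM (adjusted p = 0.016), and the median of the 16 was 0.04 against -0.04. In LOX-IMVI BR with BIBR1532 edgeR called none of the 16, where 2.90% of all genes were called higher and 0.69% lower. The median of the 16 was -0.15 against 0.04. There 1 was higher and 1 lower at an unadjusted p under 0.05, DESeq2 called none, and voom called 3 higher and 5 lower.

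Of 39 other genes of the cadherin superfamily, 31 were tested. With 6-thio-dG, 3 were higher and 3 lower in A375, where 9.86% of all genes were called higher and 8.21% lower, so the count is near that share. In LOX-IMVI BR, 7 were higher and 4 lower, against 9.81% and 7.16% of all genes. The medians were 0.35 and 0.12, against 0.03 and 0.05 over all genes. CDH23, the tip-link cadherin of hair cells, rose from 0.195 ± 0.147 to 2.57 ± 0.605 CPM in A375 (adjusted p = 0.000925) and from 0.316 ± 0.191 to 2.04 ± 0.453 CPM in LOX-IMVI BR (adjusted p = 0.00167). CDHR5, a cadherin of intestinal microvilli, rose from 1.43 ± 1.25 to 9.93 ± 3.05 CPM in A375 (adjusted p = 0.00564) and from 0.769 ± 0.520 to 10.9 ± 1.39 CPM in LOX-IMVI BR (adjusted p = 0.000662). CDH23 was too low in either control to pass the filter there, so the direction of its calls was not free. In A375 DESeq2 called 2 of the 31 higher and 4 lower, and voom called 0 in either direction, these rises included. In LOX-IMVI BR DESeq2 called 6 higher and 4 lower, and voom 10 higher and 9 lower. With BIBR1532, 2 were higher in A375, PCDH7 at 7.23 ± 0.852 against 1.26 ± 0.257 CPM (adjusted p = 0.000222) and CLSTN1, and 1 in LOX-IMVI BR, CDH10 at 5.64 ± 0.245 against 1.12 ± 0.0442 CPM (adjusted p = 0.00142). By edgeR none was called lower with BIBR1532 in either line, with 1 lower in A375 and 2 in LOX-IMVI BR at an unadjusted p under 0.05. DESeq2 also called none lower, and voom called none in A375 and 3 in LOX-IMVI BR.

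The genes whose log2(CPM + 0.5) followed a member most closely over the 12 libraries are given as a description, since the libraries share depth, line and treatment. For CDH2 they were PRC1 (Pearson r = 0.982), ACACA (0.971) and KIF5C (0.967). For CDH13 they were PTPRD (0.979), TMEM17 (0.97) and ELAC1 (0.965), and for CDH4 ZNF202 (0.914), SERP1 (0.912) and HESX1 (0.906). For CDH19 they were SNX10 (0.998), ZNF100 (0.995) and ZNF816 (0.994), each at most 0.143 CPM in a LOX-IMVI BR group. PRC1, a midzone protein of dividing cells, was at 77.7 CPM in control A375 and 22.9 CPM with 6-thio-dG, and at 95.3 and 22.2 CPM in LOX-IMVI BR.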

How the data were processed

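RNA was sequenced from 12 libraries of A375 and LOX-IMVI BR cells, prepared with a kit that does not keep the strand, per the labels' protocols. The authors deposited whole-number counts per gene, not normalized. Named in the submitters' processing notes are the builds GRCh37 and hg19 and the tools featureCounts 1.5.1, GATK, Picard and STAR, with no role for any of them. The deposited counts carry gene symbols and no coordinates. Positions, lengths and GC content came from GENCODE 29 on GRCh38 and serve as description. Of 75253 entries, 4 with ambiguous date names were dropped. No library lost more than 0.000913% of its counts by this.

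In R 4.3.3, genes were filtered with filterByExpr, scaled by TMM and fitted with edgeR 4.0.16 (glmQLFit robust, 1 mean per group, 6 residual degrees of freedom), which left 29114 genes, 14439 of them with symbols. The p-values were adjusted by Benjamini-Hochberg within each of 9 comparisons, and called under 0.05. The SE is the log2 fold change divided by the root of its F statistic. Alternatives were DESeq2 1.42.0 (size factors, test), upper-quartile factors, no filter, limma 3.58.1 voom with group weights, a fit per line, a GC correction that removes each library's smooth trend, a replicate block, and each library left out. Scripts were tested on simulated data. Counting intervals are at 95% and exact, and they and the floor of 3 counts cover counting error only. The 9 members were named whatever their result; of each list, up to 4 called genes per comparison with the smallest adjusted p were eligible; like genes were the 3 highest in Pearson r for members of at least 5 CPM in a group. Members and lists were chosen with earlier results of these data known.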

Additional observations from a re-analysis of the deposited data

Results flagged for a closer look

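The response of 2 cadherin genes differed between the lines by a test of the difference itself. For CDH4 the log2 fold change with 6-thio-dG was higher in LOX-IMVI BR than in A375 by 6.24 ± 0.55 (edgeR adjusted p = 4.89e-05), with a fall in both A375 libraries and a rise in both LOX-IMVI BR libraries. For BIBR1532 the CDH4 difference was 4.30 ± 0.58 (adjusted p = 0.00129), where A375 fell and LOX-IMVI BR, already near 1 CPM in the control, was not called. For CDH13 the difference with 6-thio-dG was 1.62 ± 0.44 (adjusted p = 0.0447), and it was lost with upper-quartile factors (1.46, adjusted p = 0.0876), with the replicate block (1.60, adjusted p = 0.0987) and without any 1 of 8 libraries (both A375 libraries with BIBR1532 and all 6 of LOX-IMVI BR), with adjusted p over all alternatives of 0.00312 to 0.212. Groups of 2 libraries were too small for a check of single outlying libraries.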

How the results depend on the processing

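Of the called changes against control, those of CDH4 and CDH13 with 6-thio-dG and of CDH4 and CDH3 with BIBR1532, all in A375, kept direction and call under every alternative run. Counts of cadherin genes called moved as follows. With 6-thio-dG in A375, 3 lower became 2 with upper-quartile factors, voom and the line alone. With BIBR1532 in A375, 2 higher became 1 with the DESeq2 test, voom and the line alone, and 2 lower became 1 with upper-quartile factors, GC correction and the line alone and 3 with no filter. With 6-thio-dG in LOX-IMVI BR, 2 higher became 1 with the line alone, where CDH3 was too low to be tested, and 1 lower became 2 with voom and the line alone. With BIBR1532 in LOX-IMVI BR, 0 higher became 1 with voom (CDH3) and with the line alone (CDH2), and 0 lower became 1 with the DESeq2 test, no filter, GC correction, voom and the line alone. Between the compounds, 4 lower in A375 became 0 with voom, 1 with the line alone and 3 with upper-quartile factors, and 1 higher in LOX-IMVI BR became 2 with GC correction or the line alone and 3 with voom. Between the controls, 5 lower became 4 with GC correction and voom and 6 with no filter. Between the lines, 2 higher for 6-thio-dG became 1 with upper-quartile factors and 3 with the DESeq2 test, no filter and GC correction, and 0 lower for BIBR1532 became 1 with upper-quartile factors, no filter and GC correction. The cause of the other moves was not tested.

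Same-numbered libraries correlated in their deviations from the group means at -0.205 to 0.492 within a line, so the numbers were not taken as pairs. With the replicate block, 2 lower with BIBR1532 in A375 became 1 (CDH13 -1.03, adjusted p = 0.0688) and 2 higher for the 6-thio-dG difference became 1 (CDH13). Also, 5 lower between the controls became 4 (CDH15 -1.62, adjusted p = 0.0784), and 4 lower between the compounds in A375 became 3 (CDH2 -0.97, adjusted p = 0.0672). The block changed no other call of a cadherin gene. All genes called fell from 5261 to 4516 with 6-thio-dG in A375. With the A375 control numbers crossed in the block, chosen after seeing the data, 6259 genes were called there and 1 cadherin gene lower with BIBR1532 in LOX-IMVI BR.

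With a library left out, cadherin genes called lower with 6-thio-dG in A375 ranged from 3 to 4, with BIBR1532 in A375 from 1 to 2 higher and 1 to 3 lower, with 6-thio-dG in LOX-IMVI BR from 0 to 2 higher and 0 to 2 lower, and with BIBR1532 there from 0 to 1 lower. Between the compounds in A375 they ranged from 0 to 1 higher and 1 to 4 lower, between the controls from 4 to 5 lower, and between the lines from 1 to 3 higher for 6-thio-dG and 0 to 1 lower for BIBR1532. Values that were not called turned sign. For 6-thio-dG in A375 CDH3 was -0.01 with voom and -1.23 to 1.26 with a library left out, CDH15 was 0.10 with upper-quartile factors and -0.93 to 0.18, and CDH19 was 0.04 with GC correction and -2.56 to 0.31. CDH19 was 0.24 with GC correction for BIBR1532 in A375, and -0.20 and -1.35 to 1.38 between the compounds there. CDH4 between the compounds in A375 was -0.12 with no filter and -0.29 to 0.52. In LOX-IMVI BR CDH19 was -0.02 with voom and -2.25 to 2.79 for 6-thio-dG and -3.28 to 0.46 between the compounds, CDH4 -0.42 to 0.18 for BIBR1532, and CDH15 -0.46 to 1.26 between the compounds. CDH2 ranged from -0.03 to 0.44 between the controls. For the 6-thio-dG difference between lines CDH2 was 0.09 with no filter and -0.38 to 0.09, CDH15 -1.68 to 0.32 and CDH19 -1.62 to 3.42. For the BIBR1532 difference CDH3 was -0.42 with voom and CDH13 -0.48 to 0.35.

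Over all alternatives the number of all genes called ranged widely around the count reported: 290 to 6682 against 5261 with 6-thio-dG and 924 to 6301 against 4593 with BIBR1532 in A375, 4043 to 16516 against 4939 and 715 to 10820 against 1046 in LOX-IMVI BR, 1162 to 6397 against 4664 and 4656 to 16113 against 5998 between the compounds, 9078 to 15566 against 14505 between the controls, and 839 to 2930 against 1612 and 940 to 3756 against 1058 between the lines. Upper-quartile factors moved the median of all genes by 0.387, 0.232, 0.230 and -0.121 in the 4 comparisons with control, and the share of calls that were higher from 54.6% to 80.0%, 53.8% to 66.4%, 57.8% to 73.5% and 80.8% to 74.1%. Between the compounds that share moved from 45.3% to 60.1% in A375 and from 48.0% to 69.5% in LOX-IMVI BR, and for the BIBR1532 difference between lines from 57.6% to 38.1%.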

Other observations

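Desmosome genes build the other cadherin-based junction. Of 10 tested, 5 were lower and 1 higher in control LOX-IMVI BR than in control A375, where 28.8% of all genes tested were called lower and 21.1% higher, with a median log2 fold change of -1.29 against -0.12 over all genes tested. DSG2, a desmosomal cadherin, was at 57.7 ± 24.2 CPM in control A375 and 0.491 ± 0.269 CPM in control LOX-IMVI BR (edgeR adjusted p = 5.73e-07). The plaque genes PKP2, at 14.2 ± 1.09 against 0.0956 ± 0.00664 CPM (adjusted p = 2.13e-07), and DSP, at 44.5 ± 21.2 against 1.26 ± 0.216 CPM (adjusted p = 5.16e-06), were lower too. A gene as low as PKP2 in control LOX-IMVI BR entered the test through other groups. The direction of such a call was not free, and the count between the controls is not read as a result about the list. With 6-thio-dG, 2 of the 10 were lower in each line, against 8.21% of all genes in A375 and 7.16% in LOX-IMVI BR. Of the 14439 genes with symbols, 1866 were lower in A375 and 1554 in LOX-IMVI BR. With BIBR1532 edgeR called none in either, with medians of -0.47 in A375 and -0.09 in LOX-IMVI BR, DESeq2 called none, voom called 1 higher in LOX-IMVI BR, and 2 in A375 and 0 in LOX-IMVI BR had an unadjusted p under 0.05.

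Among proteases that can cut cadherins and proteins of their traffic, MMP9, a gelatinase, rose in A375 with BIBR1532 from 0.503 ± 0.184 to 52.7 ± 4.20 CPM (adjusted p = 1.14e-06), while in LOX-IMVI BR it fell with 6-thio-dG from 22.2 ± 4.04 to 0.324 ± 0.175 CPM (adjusted p = 2.58e-06). MMP3, stromelysin, rose with 6-thio-dG in both lines, from 1.01 ± 0.484 to 5.43 ± 1.43 CPM in A375 (adjusted p = 0.00223) and from 2.56 ± 0.211 to 50.6 ± 1.47 CPM in LOX-IMVI BR (adjusted p = 1.98e-05). Most of the 19 tested in this list were not called. With 6-thio-dG, 1 was higher and 4 lower in A375, against 9.86% and 8.21% of all genes, and 1 higher and 5 lower in LOX-IMVI BR, against 9.81% and 7.16%. With BIBR1532, 3 were higher and 3 lower in A375, against 8.49% and 7.29%. In LOX-IMVI BR with BIBR1532 edgeR called none, with 2 higher and 3 lower at an unadjusted p under 0.05, DESeq2 called 1 lower, and voom called 5 higher and 6 lower.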
